A study of Mus musculus with 6 samples.

Results

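The circadian clock genes Clock, Per1, Per2, Per3, Cry1, Cry2, Nr1d1, Nr1d2, Dbp and Tef were described in mouse liver RNA-seq, by gene name in the deposited tables. All 10 were present among the 14002 genes listed. The livers came from C57BL/6 mice given a 60% high-fat diet for 8 weeks and labelled as 8 weeks old: 3 were wild type, and 3, called LKO, lacked let-7b and let-7c-2 in their hepatocytes. All 6 mice received the high-fat diet, so no group on another diet entered the comparison. The driver of the knockout, the sex of the mice, the light schedule, the feeding state and the hour at which livers were taken were not stated in the labels. Values are the authors' expression signal, in which a single read was worth between 0.110 and 0.149 units depending on the library. Estimated counts over the listed genes ran from 8549483 to 10764825 per library.

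The mammalian clock is a feedback loop of transcription. CLOCK, or its relative NPAS2, pairs with BMAL1 (the product of Arntl) and switches on the Per, Cry, Nr1d, Dbp and Tef genes through sequences called E-boxes, and PER and CRY proteins then repress that pair. The nuclear receptors REV-ERBα and REV-ERBβ, encoded by Nr1d1 and Nr1d2, repress Arntl, Npas2, Clock, Cry1 and Nfil3 through ROR elements, while DBP, TEF and HLF act on D-boxes. In mouse liver the E-box and D-box genes peak from midday to early night, and Arntl, Npas2, Clock and Nfil3 peak around the end of the night, with Cry1 somewhat earlier, so the sets are high at different parts of the day. These transcripts are therefore unequal between livers taken at different clock times.

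The mature sequences of the microRNAs removed from hepatocytes are shown because the comparison rests on them (RefSeq, GRCm38.p6), with capitals marking the seed, bases 2 to 8, which is the same in both.
let-7b-5p: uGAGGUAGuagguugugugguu
let-7c-5p: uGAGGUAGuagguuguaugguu

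Wild type replicate 3 stood apart from the other 5 livers in the clock genes, and fold changes of clock genes are given with and without it. In this liver Per2, Per3, Nr1d2, Dbp and Tef, 5 of the 10 clock genes, lay at least 2-fold below every other liver on the log2(signal + 1) scale. Of all 11168 tested genes, those with a mean signal of at least 1, only 0.242% lay that far below in this liver. In the other 5 livers none of the 10 clock genes lay 2-fold beyond the rest in either direction, where 0.0895% and 0.0985% of all tested genes did in wild type replicates 1 and 2 and 0.179%, 0.376% and 0.152% in LKO replicates 1, 2 and 3. Over all genes its log2 values correlated at 0.987 and 0.988 with the other wild type libraries, in a range of 0.974 to 0.990 over all pairs. On the second principal component (16% of the variance) it lay at -19.2, against 11.6 and 4.23 for wild type replicates 1 and 2 and -12.6 to 19.8 for LKO. Hepatocyte markers summed to 142100 signal units in it, between the 131200 and 163000 of the other wild type livers, and Kupffer cell and macrophage markers summed to 150, between 139 and 157. Endothelial markers summed to 122 in it, above the 105 and 108 of the other wild type livers. The hepatocyte gene Alb averaged 107500 ± 13530 (SD, n = 3) in wild type and Apoa1, an apolipoprotein gene, 9541 ± 2350.

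Between the groups, 5 of 12 markers of Kupffer cells and macrophages were raised in LKO and none was lowered. Over all tested genes 1.82% were raised and 1.69% lowered. The median log2 fold change of the 12 markers was 0.81, and their summed signal ran from 139 to 157 in wild type and from 209 to 304 in LKO. The number called was 3 without wild type replicate 3, 1 without wild type replicate 1, 0 without wild type replicate 2, 9, 1 and 0 without LKO replicates 1, 2 and 3, and 6 with the replicate block. Clec4f, a Kupffer cell lectin, averaged 29.6 ± 3.59 and 53.7 ± 9.74 (log2 fold change 0.83). Cd5l, a macrophage-secreted protein gene, had 0.61 (adjusted p 0.0537 in limma). No hepatocyte marker of 8 was called (median 0.15), nor any of 8 endothelial (median 0.35, with Clec4g at 0.39 and Kdr at 0.08), 8 stellate and fibroblast (0.16, with Dcn at 0.04 and Reln at 0.22) or 2 tested cholangiocyte markers (Spp1 at 1.02, Sox9 at -0.29). Cd4, the only tested gene of 8 lymphocyte markers, was raised (1.43, adjusted p 0.0203 in limma, but 0.0720 when wild type replicate 2 was left out and 0.0737 when LKO replicate 3 was), and the next most abundant, Ms4a1, averaged 0.111 and 0.193 signal units. The part of these differences in the clock values was not tested. In bulk liver, fewer cells of a type and less RNA per cell cannot be told apart.

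Dbp showed the widest range of the 10 genes. It encodes a D-box-binding activator and is a classic direct output of CLOCK and BMAL1. Its signal was 83.8, 37.4 and 1.26 in wild type replicates 1, 2 and 3, and 76.8, 54.6 and 41.6 in LKO replicates 1, 2 and 3. The low value rested on an estimated 11.4 reads, against 297 to 644 in the other 5 libraries. The highest wild type value was 66.5 times the lowest, and all 3 LKO values lay within the wild type range. The log2 fold change was 1.55 (SE 1.04, adjusted p 0.470 in limma, 95% interval -0.77 to 3.87), and without wild type replicate 3 it was -0.0038 (interval -0.73 to 0.73). Tef, a relative of Dbp that binds the same D-boxes, had 190.6, 168.7 and 70.8 in wild type and 173.7, 171.0 and 147.4 in LKO. Again wild type replicate 3 was low, and for Tef the other 5 formed a narrow band, unlike those of Dbp (37.4 to 83.8). The Tef log2 fold change was 0.31 (SE 0.30, adjusted p 0.632 in limma), or -0.13 without wild type replicate 3. Tef (chr15:81802421-81826863, GRCm38) is on the chromosome of the deleted microRNAs, 3.88 Mb from let-7c-2.

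**Figure D1:**
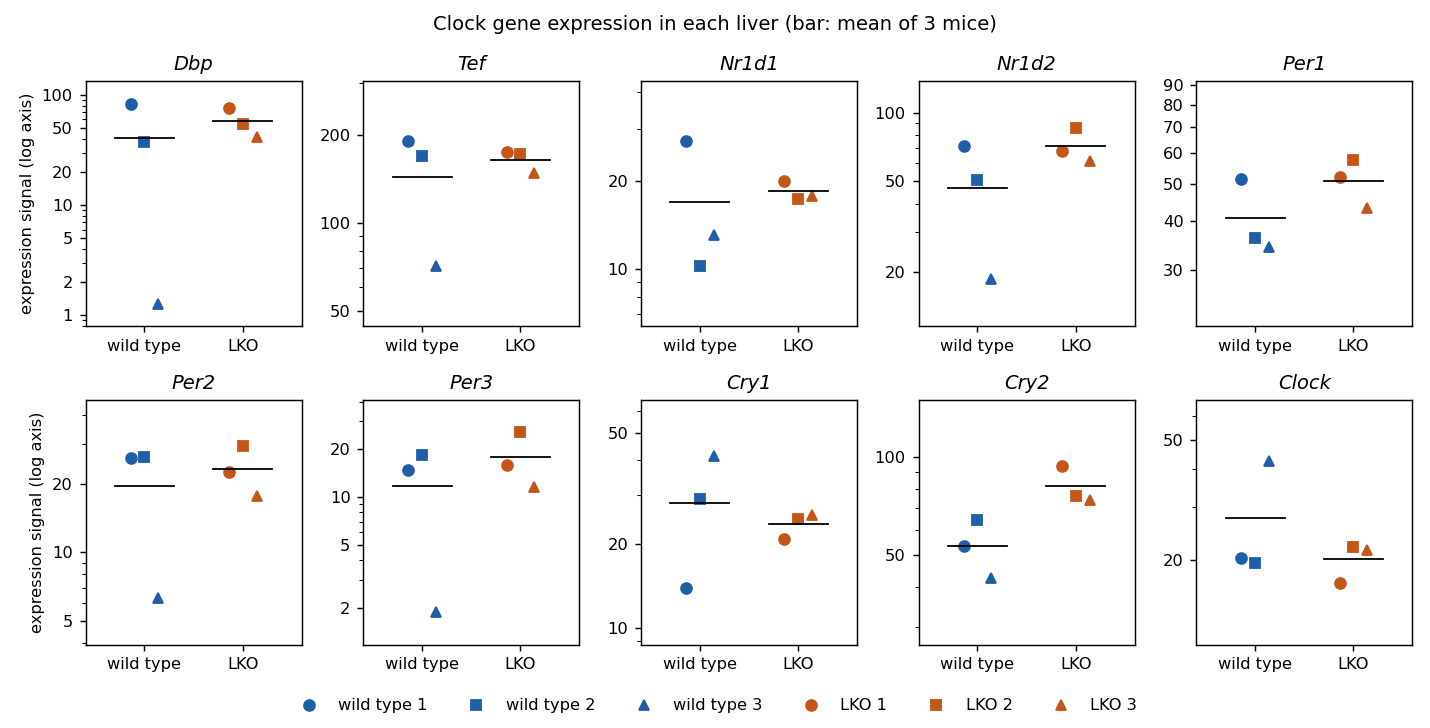
Expression signal (log axis) of the 10 clock genes in each of 3 wild type and 3 LKO livers, with bars at the group means. Wild type replicate 3 is the lowest of the 6 livers for Dbp, at 1.26, and for Tef, Nr1d2, Per1, Per2, Per3 and Cry2, and the highest for Cry1 and Clock.

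The 3 Period genes encode repressors of CLOCK and BMAL1 and differed in how far wild type replicate 3 departed. Per2 measured 25.9, 26.4 and 6.30 in wild type and 22.6, 29.3 and 17.7 in LKO. Per3, the Period gene least needed for the rhythm itself, measured 14.8, 18.3 and 1.88 in wild type and 16.0, 25.8 and 11.6 in LKO. In both genes wild type replicate 3 was far below the other livers, with 57 and 17 reads. Per1, which also responds acutely to hormones and feeding signals, measured 51.6, 36.2 and 34.4 in wild type and 52.1, 57.6 and 43.2 in LKO. Here wild type replicates 2 and 3 were both low and close to each other. None of the 3 passed the test. The log2 fold changes were 0.44 (SE 0.44) for Per2, 0.90 (SE 0.61) for Per3 and 0.33 (SE 0.17) for Per1, with adjusted p of 0.644, 0.475 and 0.339 in limma. Without wild type replicate 3 they were -0.19, 0.03 and 0.22.

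The REV-ERB genes did not follow a single pattern. Nr1d2, which encodes REV-ERBβ, had 71.4, 50.7 and 18.6 in wild type and 67.7, 86.2 and 61.7 in LKO. It was low in wild type replicate 3, like Dbp and Per3. Nr1d1, which encodes REV-ERBα, had 27.3, 10.2 and 13.0 in wild type and 20.0, 17.4 and 17.8 in LKO. In this gene wild type replicate 2, not replicate 3, was the lowest liver, and replicate 1 was the highest. The log2 fold changes were 0.79 (SE 0.39, adjusted p 0.315 in limma) for Nr1d2 and 0.23 (SE 0.29, adjusted p 0.713) for Nr1d1. Without wild type replicate 3 they were 0.24 and 0.12, and without wild type replicate 2 the Nr1d1 value was -0.042. The exons of Nr1d1 share 263 bases with Thra on the opposite strand, those of Dbp share 539 bases with Sphk2, those of Cry2 share 295 with D930015M05Rik and those of Tef share 193 with Gm17597. The library kit keeps strand, but the labels do not say whether counting used it, so reads from the shared bases cannot be told apart. Sphk2 measured 42.5, 57.1 and 46.0 in wild type and 56.8, 48.9 and 57.1 in LKO, with no low value in wild type replicate 3. The partners of Cry2 and Tef were not analysed here. Thra had 10.6, 9.60 and 12.3 in wild type and 7.85, 5.56 and 5.17 in LKO.

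Cry1, Cry2 and Clock completed the list. Clock encodes the DNA-binding partner of BMAL1. It measured 20.3, 19.6 and 42.4 in wild type and 16.8, 22 and 21.5 in LKO, so wild type replicate 3 was the highest liver while the other 5 lay close together. Cry1 encodes a late-acting repressor of the loop. Its signal was 13.9, 29.0 and 41.3 in wild type and 20.8, 24.6 and 25.4 in LKO, again highest in wild type replicate 3 and lowest in wild type replicate 1. The log2 fold changes were -0.35 (SE 0.26, adjusted p 0.527 in limma) for Clock and -0.12 (SE 0.31, adjusted p 0.881) for Cry1, and 0.0016 and 0.21 without wild type replicate 3.

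Cry2 was the 1 clock gene in which the groups did not overlap, where 24.2% of all tested genes did not. It encodes the second cryptochrome repressor, whose transcript has only a shallow daily rhythm in liver. Cry2 measured 53.3, 64.2 and 42.5 in wild type and 94.2, 76.4 and 73.9 in LKO. The means were 53.3 ± 10.8 and 81.5 ± 11.1 (SD, n = 3). Its log2 fold change was 0.61 (SE 0.16, 95% interval 0.25 to 0.97), with an unadjusted p of 0.00369 and an adjusted p of 0.0742 in limma, so it did not pass. Over the 12 alternative fits its log2 fold change ran from 0.46 to 0.75 and its adjusted p from 0.0542 to 0.171, and it was 0.46 (adjusted p 0.171) without wild type replicate 3.

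The comparison of LKO with wild type asked whether clock transcripts differ when hepatocytes lack let-7b and let-7c-2. No clock gene was called: 0 of 10 were raised and 0 were lowered at an adjusted p under 0.05 in limma, where 1.82% of all 11168 tested genes were raised, 1.69% lowered and 3.51% called in all. At an unadjusted p under 0.05 there was 1, Cry2, where 18.4% of all tested genes passed. The median log2 fold change of the 10 genes was 0.38 with 8 values positive, against -0.002 over all tested genes. Without wild type replicate 3 the median was 0.08, and again 0 were called and 1 had an unadjusted p under 0.05 (1.96% and 16.1% of all tested genes). The intervals remained wide. With all livers they reached 3.87 for Dbp and 2.26 for Per3, so they include differences of several fold in these genes at 3 mice a group. Without wild type replicate 3 the interval of Dbp was -0.73 to 0.73, that of Tef -0.42 to 0.16 and that of Clock -0.37 to 0.37.

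**Figure D2:**
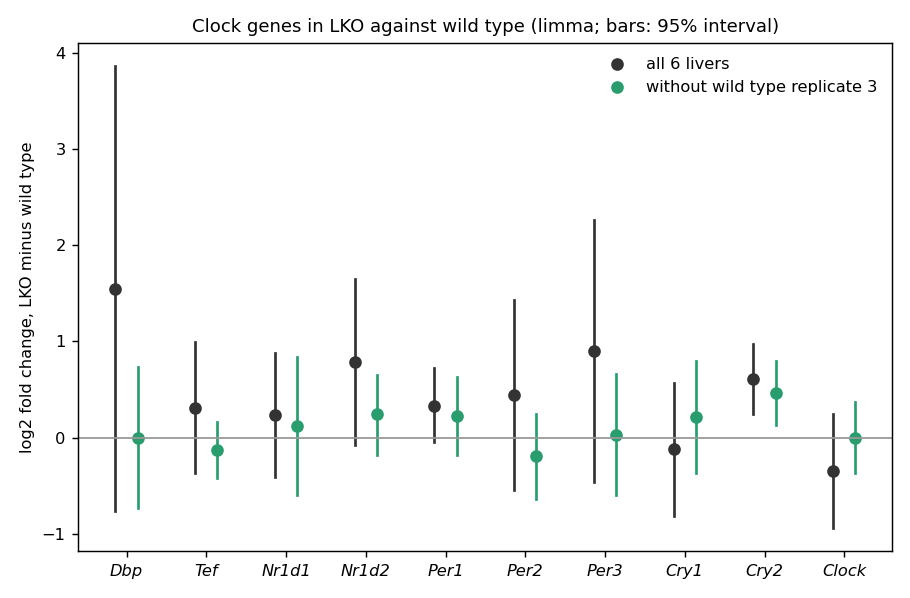
Log2 fold change of each clock gene, LKO minus wild type, from limma on log2(signal + 1), with 95% intervals, for all 6 livers and without wild type replicate 3. The Dbp value is 1.55 with all livers and -0.0038 without that replicate, and Cry2, at 0.61 and 0.46, is the gene whose intervals leave out 0 in both fits.

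Other genes of the clock loop were taken from a list of 11, of which 9 were tested. None was called in limma in either direction, and 1 had an unadjusted p under 0.05, where 18.4% of all tested genes did. Arntl, which encodes BMAL1, measured 1.30, 6.56 and 21.3 in wild type and 2.77, 2.83 and 9.69 in LKO. Npas2, the relative of Clock, had 61 reads in wild type replicate 3, for a signal of 6.74, and 0 or 1 read in each of the other 5 libraries, where 3 reads correspond to 0.334 to 0.447 units. Npas2 passed the filter on low values through that library alone. Arntl and Npas2, which lie on the opposite side of the loop from Dbp and Per3, were thus at their highest in the liver where those genes were at their lowest. Nfil3, a D-box repressor, measured 33.2, 53.5 and 91.4 in wild type and 59.1, 59.4 and 53.7 in LKO. Ciart, which encodes the repressor CHRONO, measured 34.9, 31.9 and 13.5 in wild type and 39.3, 34.4 and 24.4 in LKO. Both departed in wild type replicate 3, Nfil3 upward and Ciart downward. The E-box repressor Bhlhe41 had a single read in wild type replicate 3 and 16 in replicate 1.

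The remaining loop genes moved less between livers. Bhlhe40, a relative of Bhlhe41 that also responds to other stimuli, measured 153.0, 111.7 and 91.4 in wild type and 185, 205 and 141 in LKO, the list's member with an unadjusted p under 0.05 (log2 fold change 0.59, SE 0.20, adjusted p 0.145 in limma). Its groups overlapped, since wild type replicate 1 exceeded LKO replicate 3. Rora, an activator at ROR elements, ran from 65.7 to 91.9 over the 6 livers (-0.20), and Hlf, the third of the D-box activators, from 54.3 to 76.8 (0.02). Log2 fold changes were -0.44 for Arntl, -0.92 for Npas2, 0.07 for Nfil3, 0.36 for Ciart and 0.19 for Bhlhe41. In the fit without wild type replicate 3 they were 0.36, 0.06, 0.43, -0.06 and -0.20 in the same order. The sign turned for Arntl, Ciart and Bhlhe41. The Npas2 value in that fit rests on 1 read, in LKO replicate 1, so its sign is not read. In that fit Bhlhe40 had 0.42, Rora -0.08 and Hlf -0.13, and Nfil3 was the gene with an unadjusted p under 0.05 (0.0445, adjusted p 0.298 in limma).

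**Figure D3:**
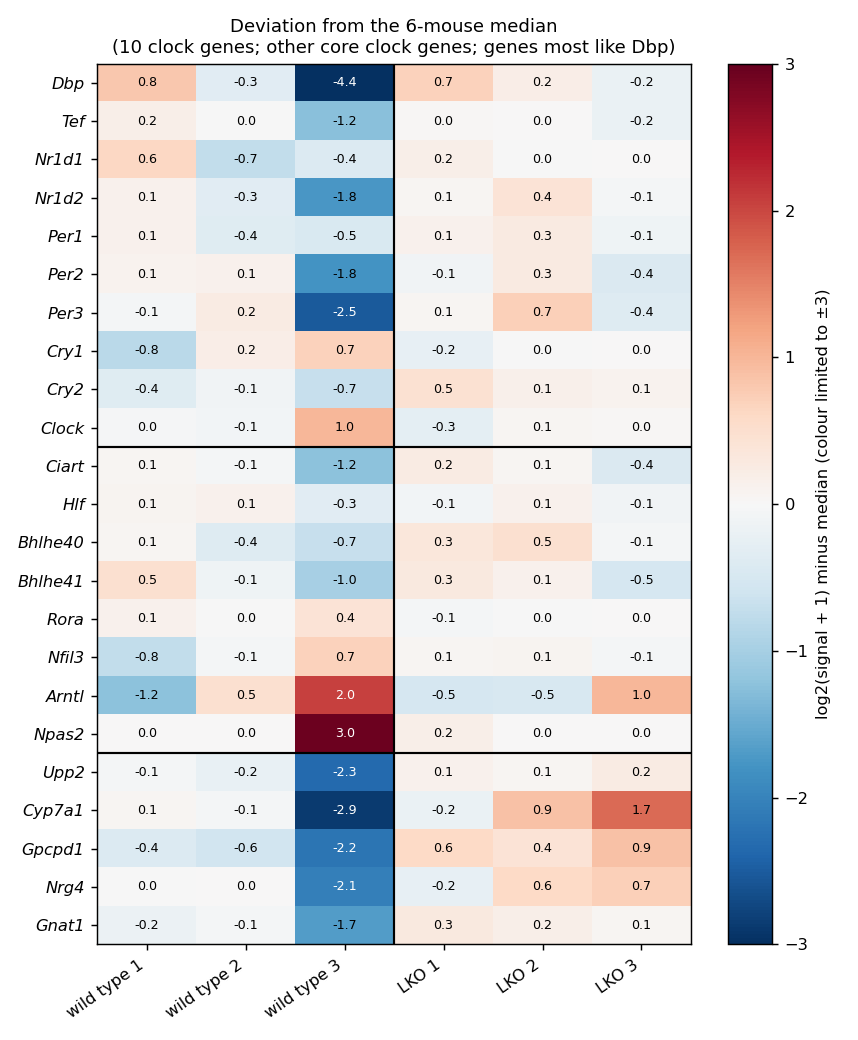
Difference of log2(signal + 1) from the 6-liver median for the 10 clock genes (top), 8 other core clock genes (middle) and the 5 genes whose profile is most like that of Dbp (bottom). In wild type replicate 3 Dbp lies 4.43 below the median (-4.43) and Per3 -2.51, while Clock is at 0.99, and the 3 LKO livers show smaller deviations in these genes.

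The balance of day and evening against night and morning genes was described for each liver as the mean log2(signal + 1) of Per1, Per2, Per3, Nr1d1, Nr1d2, Dbp and Tef minus that of Clock, Cry1, Arntl, Npas2 and Nfil3. It was 2.71, 1.57 and -1.39 in wild type replicates 1, 2 and 3, and 2.19, 2.22 and 1.49 in LKO replicates 1, 2 and 3. Day and evening genes thus had the higher mean signal in 5 livers and the lower one in wild type replicate 3. The sets hold different genes at unlike levels, so the sign of the balance gives no time of day. Only differences between livers can be compared. The group means were 0.96 ± 2.12 and 1.97 ± 0.42 (SD, n = 3). The LKO livers spanned less than the wild type livers. Wild type replicate 1, at 2.71, lay above all LKO values, and replicate 2, at 1.57, lay between them. The difference of the group means was 1.00 with all livers and -0.17 without wild type replicate 3. Npas2 enters this balance although only wild type replicate 3 held more than 1 read of it. Without Npas2, a choice made after seeing the data, the balance was 1.98, 0.67 and -1.90 in wild type and 1.41, 1.37 and 0.57 in LKO, with a difference of the means of 0.86, and wild type replicate 3 was again the only liver below 0. No p is given, since the genes were chosen with results known.

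**Figure D4:**
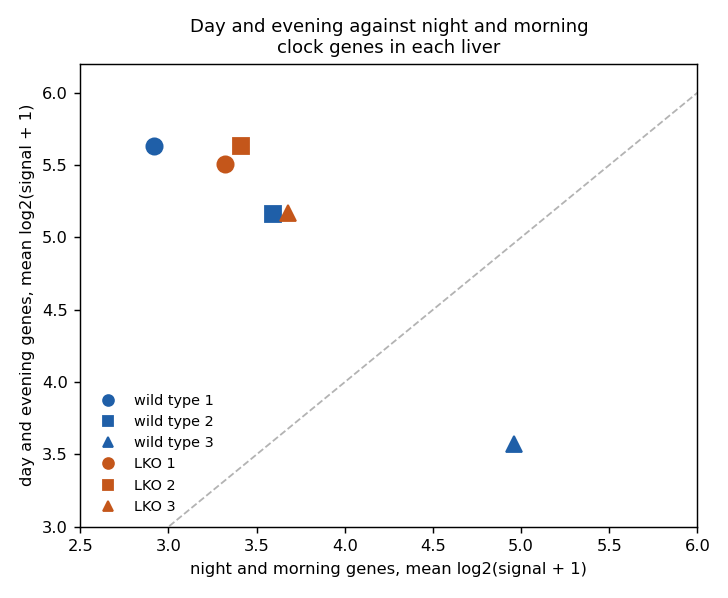
Mean log2(signal + 1) of 7 day and evening genes (vertical axis) against 5 night and morning genes (horizontal axis), 1 point per liver, with a dashed line where they are equal. Wild type replicate 3 lies below the line, at 4.96 and 3.57, and the other 5 livers lie above it. The line marks equal means and no time of day.

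Mice of the same group differed more in clock genes than in most genes. The SD of log2(signal + 1) around the group means had a median of 0.55 over the 10 genes and of 0.20 over all tested genes. In 8 of the 10 genes it was above the 90th percentile of all tested genes, 0.42, which 10% of genes exceed by construction. Dbp was at the 99.99th percentile with an SD of 1.97, Per3 had 1.14 and Per2 had 0.81. Per1 and Cry2, at 0.26 and 0.25, were below that percentile. Without wild type replicate 3 the number above the 90th percentile was 4. With wild type replicate 3 included, the spread lay mostly in the wild type group. The ratio of highest to lowest value ran from 1.5 to 66.5 over the 10 genes in wild type and from 1.15 to 2.22 in LKO. Wild type replicates 1 and 2 differed in some genes, with Cry1 at 13.9 and 29.0, Nr1d1 at 27.3 and 10.2 and Dbp at 83.8 and 37.4. They lay close together in others, with Per2 at 25.9 and 26.4, Clock at 20.3 and 19.6 and Tef at 190.6 and 168.7.

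**Figure D5:**
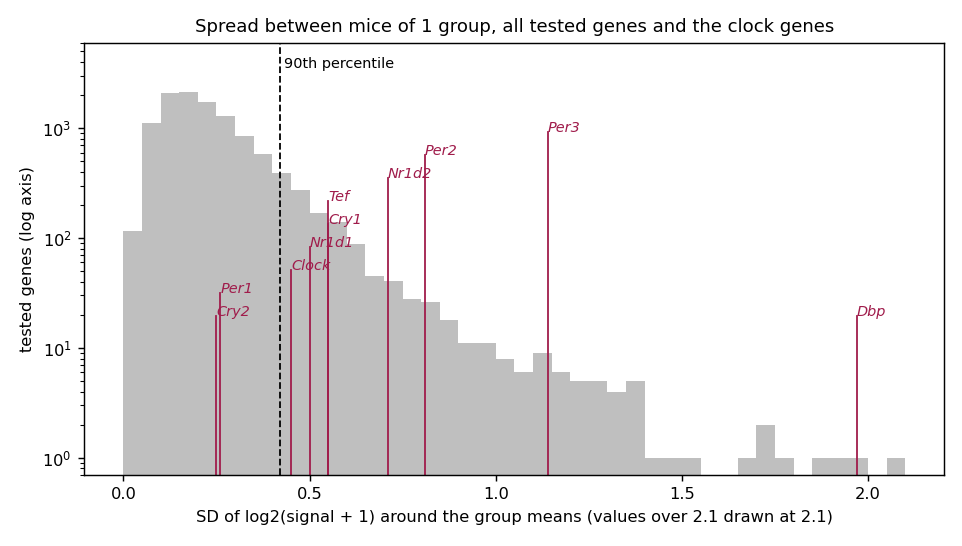
SD of log2(signal + 1) around the group means for all 11168 tested genes (grey, log axis) with the 10 clock genes marked and the 90th percentile, 0.42, dashed. Dbp, at 1.97, and Per3, at 1.14, lie in the far tail, and Per1 and Cry2 lie within the bulk.

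Genes beyond the clock list also departed in wild type replicate 3. In this liver 57 tested genes, 0.51%, lay at least 2-fold beyond all other livers in either direction, 27 below and 30 above (0.269%), against 10 to 42 genes in each of the other 5 livers. The genes above included 2 of the 9 other core clock genes, Arntl and Npas2, of which Npas2 was tested only because of its value in this liver. Others, named after their values were seen, were Elovl3, a fatty acid elongase with a strong daily rhythm in liver, at 1222 against 86.0 to 392, and Insig2, at 526 against 105 to 219. Below all other livers lay Thrsp, a lipogenic gene, at 438 against 1353 to 2970. A ranking of 8639 genes by the root mean square difference of their centred log2 profile from that of Dbp over the 6 livers put Upp2, Cyp7a1, Gpcpd1, Nrg4 and Gnat1 nearest, at 0.95 to 1.17 log2 units. Since Dbp was lowest in wild type replicate 3 by far, this ranking favours genes that were low there, and their values are a description. Upp2, a uridine phosphorylase gene, measured 605, 531 and 123 in wild type and 684, 646 and 737 in LKO. Cyp7a1, the rate-limiting enzyme of bile acid synthesis, measured 71.8, 65.5 and 8.51 in wild type and 59.2, 127 and 226 in LKO. In wild type replicate 3 Gpcpd1 was at 24.2, Nrg4 at 1.99 and Gnat1 at 2.54. Gpcpd1, a glycerophosphocholine phosphodiesterase gene, was also called higher in LKO (log2 fold change 1.69, adjusted p 0.0475 in limma), and without wild type replicate 3 it had 1.12 (adjusted p 0.00812). The call ended when wild type replicate 2 was left out (adjusted p 0.0792), and likewise for LKO replicates 1, 2 and 3 (0.0649, 0.117 and 0.152). It also ended with a pseudocount of 0.1 (0.0540), with no filter on low values (0.0751) and with a minimum mean of 5 (0.0542).

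Lists of genes that act on clock proteins or lie downstream of the clock were read beside the 10 genes. Over all tested genes 3.51% were called and 18.4% had an unadjusted p under 0.05 in limma. Of 16 genes for enzymes and cofactors that act on clock proteins, none was called in limma and 1 had an unadjusted p under 0.05 (median log2 fold change 0.07). That gene was Csnk1d, a casein kinase gene for the enzyme that phosphorylates PER proteins, with 69.4, 62.3 and 71.7 in wild type and 91.0, 87.7 and 79.8 in LKO (0.34, adjusted p 0.132). Usp2, a deubiquitinase gene and clock output, had 114, 95.4 and 50.8 in wild type and 115, 109 and 127 in LKO (0.50, or 0.16 without wild type replicate 3). Of 10 tested outputs of CLOCK and BMAL1 none was called and 2 had an unadjusted p under 0.05 (median 0.11), Klf10 (-0.41, adjusted p 0.142) and Ppp1r3c (-0.56, adjusted p 0.245, and -0.30 without wild type replicate 3). Of 8 genes repressed by REV-ERB none was called and 0 had an unadjusted p under 0.05 (median -0.35, or 0.14 without wild type replicate 3). This list holds Arntl, Npas2 and Nfil3 again, so its median partly repeats their values. Npas2 was tested only because of its value in wild type replicate 3. The smallest p was that of Insig2, a brake on sterol synthesis, with 131, 212 and 526 in wild type and 135, 105 and 219 in LKO (-0.74, adjusted p 0.406, and -0.19 without wild type replicate 3).

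Of 9 genes known to depend on DBP, TEF and HLF, 4 were lowered and none raised in limma (median -1.60), where 1.69% of all tested genes were lowered. At an unadjusted p under 0.05 there were 6, or 7 without wild type replicate 3, where 18.4% and 16.1% of all tested genes passed. The 4 lowered were the acyl-CoA thioesterase genes Acot1, Acot2, Acot3 and Acot4, with log2 fold changes of -3.27, -2.70, -4.90 and -2.14, which are also targets of PPARα. The same 4 had -2.91, -2.62, -5.12 and -2.17 without wild type replicate 3, and since the Acot genes are close copies that can share reads, the value of each alone is uncertain. The others with an unadjusted p under 0.05 were Nr1i3, which encodes the nuclear receptor CAR (-0.79, adjusted p 0.0681 in limma), and its target Cyp2b10 (-1.60, adjusted p 0.148). Dbp, Tef and Hlf themselves were not called in LKO. Por, the electron donor of the cytochromes P450, named after its values were seen, had its low value, 419, in wild type replicate 3, against 827 to 1096 elsewhere. Among 14 genes that respond to glucocorticoids, temperature or serum cues none was called in limma. An unadjusted p under 0.05 was found for 4, and for 18.4% of all tested genes. Fkbp5, a glucocorticoid-induced gene, had 137, 165 and 152 in wild type and 165, 283 and 269 in LKO (0.62, adjusted p 0.117). Hsp90aa1, a heat shock gene, had 241, 221 and 359 in wild type and 216, 156 and 156 in LKO (-0.62, adjusted p 0.124, and -0.41 without wild type replicate 3). Of 13 mitochondrially encoded genes none was called (median -0.31, with mt-Atp8 at -0.69 and mt-Atp6 at -0.81).

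Promoter windows from 250 bases before to 50 bases after the gene start were searched for E-boxes (CACGTG), D-boxes (TTATGTAA) and the ROR element consensus on both strands. Windows were found for 9 of the 10 clock genes (RefSeq, GRCm38.p6). E-boxes were found in Cry1, Per1 and Tef and in 7.15% of all 32851 windows, D-boxes in Per3 and in 0.938% of windows, and the ROR element in none of the 9 and in 0.384% of windows. The motifs did not overlap each other in these windows. Among the other core genes, the Ciart window held 3 E-boxes, the Bhlhe41 window held an E-box and an Arntl window held a ROR element. In wild type replicate 3, Per1, Tef, Ciart and Bhlhe41, with E-boxes, and Per3, with D-boxes, were at their lowest. Arntl, with a ROR element, was at its highest there, but so was Cry1, with an E-box. The windows of Nr1d2, Cry2 and Hlf, lowest there, held no match, and those of Clock, Npas2, Nfil3 and Rora, highest there, held no ROR element. Bases outside the windows were not searched, and whether motif and direction pair was not tested. Shown as examples of each motif, chosen after the values were seen, are windows of Per1, Per3, Ciart and Arntl, with the matched bases in capitals.
Per1 promoter, chr11:69098699-69098998, + strand, E-box starting at -166: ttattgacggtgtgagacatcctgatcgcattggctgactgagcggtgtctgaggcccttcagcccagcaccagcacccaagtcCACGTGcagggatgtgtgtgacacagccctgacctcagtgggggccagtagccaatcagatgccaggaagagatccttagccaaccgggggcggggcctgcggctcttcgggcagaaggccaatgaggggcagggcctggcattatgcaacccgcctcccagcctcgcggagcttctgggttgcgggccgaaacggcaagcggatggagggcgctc
Per3 promoter, chr4:151044616-151044915, - strand, D-boxes starting at -205 and -158: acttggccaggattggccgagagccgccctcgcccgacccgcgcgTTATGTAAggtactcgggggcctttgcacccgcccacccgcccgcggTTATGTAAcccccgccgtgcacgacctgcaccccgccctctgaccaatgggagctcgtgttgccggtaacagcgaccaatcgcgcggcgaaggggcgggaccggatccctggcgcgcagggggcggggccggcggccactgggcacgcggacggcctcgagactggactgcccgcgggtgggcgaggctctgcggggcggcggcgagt
Ciart promoter, chr3:95882179-95882478, - strand, E-boxes starting at -116, -58 and -44: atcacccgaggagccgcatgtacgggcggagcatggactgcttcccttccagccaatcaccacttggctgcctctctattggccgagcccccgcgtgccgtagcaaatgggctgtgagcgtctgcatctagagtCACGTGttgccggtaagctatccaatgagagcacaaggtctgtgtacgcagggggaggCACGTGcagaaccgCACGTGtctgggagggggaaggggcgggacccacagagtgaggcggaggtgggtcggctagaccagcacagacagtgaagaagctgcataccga
Arntl promoter, chr7:113207261-113207560, + strand, ROR element starting at 27 after the gene start: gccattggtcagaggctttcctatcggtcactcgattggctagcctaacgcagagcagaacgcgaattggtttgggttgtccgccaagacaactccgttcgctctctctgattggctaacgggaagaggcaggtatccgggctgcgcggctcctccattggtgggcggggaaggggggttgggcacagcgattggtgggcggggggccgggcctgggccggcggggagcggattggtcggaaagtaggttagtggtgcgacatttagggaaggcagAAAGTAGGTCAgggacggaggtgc
A match describes these letters only, and the Dbp window held none of the 3 motifs although Dbp departed furthest.

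Matches to the let-7 seed were searched in the longest annotated 3′ untranslated region of each gene (GENCODE M21). Of the 10 clock genes 4 held a 7-base match, 40% against 17.1% of 10684 tested genes with such a region, in which 8-base matches are counted too. None of the 10 held the 8-base match, which 3.69% of tested genes held. The regions differ in length, from 288 bases in Nr1d1 to 6831 in Clock, which held none. The 4 sites are shown with the match in capitals (GRCm38).
Per1, chr11:69106178-69106206, + strand: catggacccctCTACCTCtcctctgccag
Per3, chr4:151005802-151005830, - strand: gagccgtgcgtTACCTCAccacagtctaa
Cry2, chr2:92404437-92404465, - strand: ccttttcctttCTACCTCccctgtgacct
Tef, chr15:81824120-81824148, + strand: tgtctgtcatgTACCTCAccctccccaaa
The log2 fold changes of these 4 genes were 0.33, 0.90, 0.61 and 0.31, and none was called. Those of Per3 and Tef became 0.03 and -0.13 without wild type replicate 3, and those of Per1 and Cry2 became 0.22 and 0.46. Clock genes without a match had 1.55 (Dbp), 0.79 (Nr1d2), 0.44 (Per2), 0.23 (Nr1d1), -0.12 (Cry1) and -0.35 (Clock). Of the other core genes, Hlf and Bhlhe41 held the 8-base match. They had 0.02 and 0.19, or -0.13 and -0.20 without wild type replicate 3. Whether match and change pair was not tested.

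Per kilobase of annotated exon, Tef had the highest mean signal over the 6 livers (19.5 units per kb), followed by Dbp (16.5), Nr1d2 (11), Cry2 (10.7), Per1 (8.14), Cry1 (7.74), Nr1d1 (5.72), Per2 (3.65), Clock (1.73) and Per3 (1.53). Of the neighbours in this order, Nr1d1 and Per2, and Per2 and Clock, differed by more than the SD of either gene over the 6 livers, and the other neighbours did not. The order changed with the liver, since in wild type replicate 3 Cry1 was the highest (12.4 units per kb) and Dbp (0.421) ranked 9 of 10, above Per3 alone.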

How the data were processed

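Per the labels' protocols, libraries came from a stranded mRNA preparation of total liver RNA. Tools listed in the submitters' processing notes, without roles or order, were STAR 2.5.1, RSEM 1.2.22, Trimmomatic 0.36, bcl2fastq 2.17, Picard 1.84 and edgeR, with build mm10. The labels state neither annotation nor strand setting. For each mouse the authors deposited an expression signal, and the file headers give it no unit. From the values, it behaves as an estimated count multiplied by a constant of the library. Only 82.0% to 83.1% of positive values were whole reads within 0.005 of a read, so count models were not run. GENCODE M21 (GRCm38, the assembly of mm10) supplied coordinates for 13977 of 14002 genes.

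The limma package 3.58.1 (R 4.3.3) was used to fit log2(signal + 1) with moderated statistics (empirical Bayes with a mean-variance trend, two-sided, no block) over all 11168 genes with a mean signal of at least 1. Benjamini-Hochberg adjustment covered all of them, and a gene was called at an adjusted p under 0.05. Log2 fold changes subtract wild type from LKO on the log2(signal + 1) scale, which understates changes of low genes. Each mouse is 1 replicate. Tables were joined and sequences searched in Python 3.11.15. The fit was tested on simulated data. The clock genes and all lists were chosen with earlier results of these data known. Named were all 10 clock genes, the tested genes of the core list (1 is not reported here), called genes of other lists or the 2 with the smallest p (Nr1i3, Cyp2b10 and Por were added after their values were seen), the 2 most abundant markers of each cell type, and the 5 genes most like Dbp. Alternatives were a pseudocount of 0.1, no filter, a minimum mean of 5, median-of-ratios and library-sum scaling, the replicate number as a block, leaving out each library, and the day and night balance without Cry1 or, added after seeing the data, without Npas2.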

Additional observations from a re-analysis of the deposited data

How the results depend on the processing

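No clock gene and no other core clock gene was called in any of the 12 alternative fits, the replicate block included. Of 120 log2 fold changes of the 10 clock genes under these alternatives, 114 kept their sign and 6 did not, all when a wild type library was left out. Without wild type replicate 3 the log2 fold change was 0.0016 for Clock, -0.19 for Per2, 0.21 for Cry1, -0.0038 for Dbp and -0.13 for Tef, and without wild type replicate 2 it was -0.042 for Nr1d1. Over all fits that left out 1 library, the values ran from -0.54 to 0.0016 for Clock, -0.19 to 0.76 for Per2, -0.54 to 0.21 for Cry1, -0.042 to 0.63 for Nr1d1, -0.0038 to 2.61 for Dbp and -0.13 to 0.58 for Tef. Fewer samples entered those fits. The number of clock genes above the 90th percentile of within-group SD was 8, and it ran from 4 (without wild type replicate 3) to 8 when libraries were left out. The day and night balance difference ran from -0.17 (without wild type replicate 3) to 1.88 (without wild type replicate 1), and was 0.86 without Npas2, added after seeing the data. With a block for the replicate number 0 of the 10 clock genes were called, 6 lay above that percentile, and 416 of all genes were called, against 392 without it. Deviations of same-numbered mice correlated at 0.046, 0.032 and 0.054, too little to treat the numbers as pairs, although each sample correlated best with its own number. The groups of 3 were too small for a test of single outlying samples. Depth limits the lowest values: 3 reads are 0.331 to 0.447 signal units.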
